A study of Mus musculus with 19 samples.

Results

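The genes described here are Nfe2l2, which encodes the transcription factor NRF2, its inhibitor Keap1 and 8 classical stress targets of NRF2 (Nqo1, Hmox1, Gclc, Gclm, Gsr, Txnrd1, Srxn1 and Slc7a11), in kidneys of ad libitum fed and fasted mice. They were chosen by name, with earlier results of these data known. Every probe set that the annotation gives to 1 of these genes alone was taken. This gave 15 probe sets of 9 genes, out of 45141 probe sets and 17097 named genes on the array. No probe set in the annotation used names Keap1, which was therefore not analysed here. RNA came from the kidneys of 19 male mice, none of which had undergone renal ischemia, and each mouse had its own Affymetrix HT MG-430 PM array. The young mice, of strain C57BL/6 as the sample label has it, were 10 to 14 weeks old and weighed 22 to 25 g, of which 5 were fed ad libitum (mice 346 to 350) and 4 were fasted for 3 days with water (mice 339, 340, 343 and 344). The aged-overweight mice, of an FVB and C57BL/6 F1 hybrid, were 73 weeks old and weighed 47 g on average, of which 5 were fed ad libitum (mice 34, 36, 37, 40 and 43) and 5 were fasted for 3 days (mice 33, 38, 39, 41 and 42). Age, strain, body weight and the array medians given below changed together and cannot be told apart. The words "aged" and "young" below therefore stand for all of them.

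Values are log2 levels, on which a difference of 1 is a doubling in intensity. Array medians were 4.15 to 4.21 in young and 3.44 to 3.49 in aged mice, so levels were compared between diets within an age, and between ages only the sizes of the fasting effects were compared. Of 9 kidney markers, uromodulin (Umod) of the thick ascending limb lay at 12.4 to 13.2 and cubilin (Cubn), an endocytic receptor of the proximal tubule, at 10.8 to 11.4 over all arrays, whereas the podocyte gene Nphs1 had a mean level of 4.26, near the array medians. None of the 9 rose, and 3 fell in young and 2 in aged kidneys: the proximal tubule glucose transporter Slc5a2 by 0.89 and by 1.09, Cdh16 by 0.33 and by 0.36, and the collecting duct water channel Aqp2 by 0.53 in young kidneys. The part of these tubule markers in the values below was not tested. Liver transcripts varied between arrays: the median log2 level of 13 liver markers reached 10.2 in aged fasted mouse 33, against 4.86 to 7.93 in the fed mice of that age, and 8.25 at most in young fasted mice. The tests were therefore also run without aged fasted mouse 33 and young fasted mouse 339, and no probe set of these genes gained or lost an adjusted p of at most 0.05 within an age. Of those 13 markers, 4 rose and 1 fell in young kidneys and none passed in aged kidneys. Brown fat markers also varied, with 3 of 8 up and 1 down in young and 1 down in aged kidneys, and none of 4 white fat or 6 adrenal cortex markers passed in either age. In whole-kidney RNA, fewer cells of a type and less RNA per cell cannot be told apart.

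NRF2 is a basic leucine zipper factor. In unstressed cells KEAP1, an adaptor of a CUL3 ubiquitin ligase, marks it for breakdown, and electrophiles or oxidants that modify KEAP1 let NRF2 gather in the nucleus. There it pairs with a small MAF protein on antioxidant response elements and raises transcription of enzymes that reduce quinones, make glutathione, regenerate thiols and break down heme, a response long studied in kidney tubules for its bearing on ischemic and toxic injury. Because the main control acts on the protein, the amount of Nfe2l2 mRNA need not follow the activity of the factor.

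The core of an antioxidant response element, TGACNNNGC or the variant TGAGNNNGC, was searched on both strands in windows from 250 bases before to 50 bases after each gene's start (RefSeq, GRCm38.p6). Windows were at hand for 7 of the 10 genes, 9 windows in all since Txnrd1 has 3, and 5 of the 9 held a core. Among all 32851 windows, 12.4% held TGACNNNGC, 17.6% held TGAGNNNGC and 27.8% held either. The upstream 250 bases of 4 genes are printed because their probe sets answered fasting in different ways (given below), with any core in capitals. Those of Srxn1 are on the plus strand at chr2:152105274-152105523, those of Gclm on the plus strand at chr3:122245307-122245556, those of Nqo1 on the minus strand at chr8:107403206-107403455 and those of Nfe2l2 on the minus strand at chr2:75704664-75704913, each written 5′ to 3′ along its gene.
Srxn1: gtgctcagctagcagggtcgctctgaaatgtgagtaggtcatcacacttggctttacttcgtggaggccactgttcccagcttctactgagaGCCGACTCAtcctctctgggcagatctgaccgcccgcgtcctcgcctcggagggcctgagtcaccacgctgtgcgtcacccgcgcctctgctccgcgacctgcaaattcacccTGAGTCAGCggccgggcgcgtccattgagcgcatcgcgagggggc
Gclm: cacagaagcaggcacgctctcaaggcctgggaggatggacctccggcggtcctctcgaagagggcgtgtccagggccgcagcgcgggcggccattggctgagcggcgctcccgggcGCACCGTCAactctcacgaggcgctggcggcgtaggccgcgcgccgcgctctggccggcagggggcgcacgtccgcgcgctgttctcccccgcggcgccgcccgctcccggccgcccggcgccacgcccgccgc
Nqo1: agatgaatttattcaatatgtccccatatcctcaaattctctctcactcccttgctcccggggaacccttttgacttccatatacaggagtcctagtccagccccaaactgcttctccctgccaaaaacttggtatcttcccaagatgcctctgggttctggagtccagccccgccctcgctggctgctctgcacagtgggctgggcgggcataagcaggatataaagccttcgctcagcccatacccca
Nfe2l2: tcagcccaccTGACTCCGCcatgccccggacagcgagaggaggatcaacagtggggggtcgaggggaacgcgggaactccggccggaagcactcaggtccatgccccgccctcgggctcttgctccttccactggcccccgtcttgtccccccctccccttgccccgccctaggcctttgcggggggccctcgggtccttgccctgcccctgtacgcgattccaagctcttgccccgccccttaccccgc
The Srxn1 window held a core at 158 and at 45 bases before the start, the latter with the letters TGAGTCA, which are also those of an AP-1 site (0.822% of all windows hold a core with TGAGTCA or TGACTCA). It held a further core after the start, outside the printed part. The Gclm core lies 134 bases before the start of Gclm, and the Nfe2l2 core lies 240 bases before that of Nfe2l2. The Gclm core and the Srxn1 core at 158 bases read as the reverse complement. The letters of neither form occur in the Nqo1 window, and sequence more than 250 bases before its start was not searched. These are matches of letters and were not tested for binding.

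In young kidneys, fasting raised 7 of the 15 probe sets (adjusted p of at most 0.05) and lowered none, in 4 of the 9 genes: Nfe2l2 by 1 of its probe sets, Nqo1, Txnrd1 and all 4 probe sets of Srxn1. In aged kidneys it raised 4 probe sets and lowered none: both of Nfe2l2, Nqo1 and Txnrd1. The remaining genes, Hmox1, Gclc, Gclm, Gsr and Slc7a11, passed in neither age. Over the whole array, 10.1% of probe sets rose in young and 3.16% in aged kidneys by the same test (limma, p adjusted over all probe sets by Benjamini and Hochberg). With a fold change of at least 1.5 in addition, 3 of the 15 were called in young kidneys (Nfe2l2, Nqo1 and Srxn1) and 2 in aged kidneys (Nfe2l2 and Nqo1), against 2.63% and 1.01% of all probe sets. Fed and fasted groups were free of overlap in 7 of the 15 probe sets in young and 3 in aged kidneys, against 17.2% and 7.25% of all probe sets. The median log2 fold change over the 15 was 0.32 in young and 0.08 in aged kidneys, beside 0.0033 and 0.00033 over all probe sets.

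**Figure D1:**
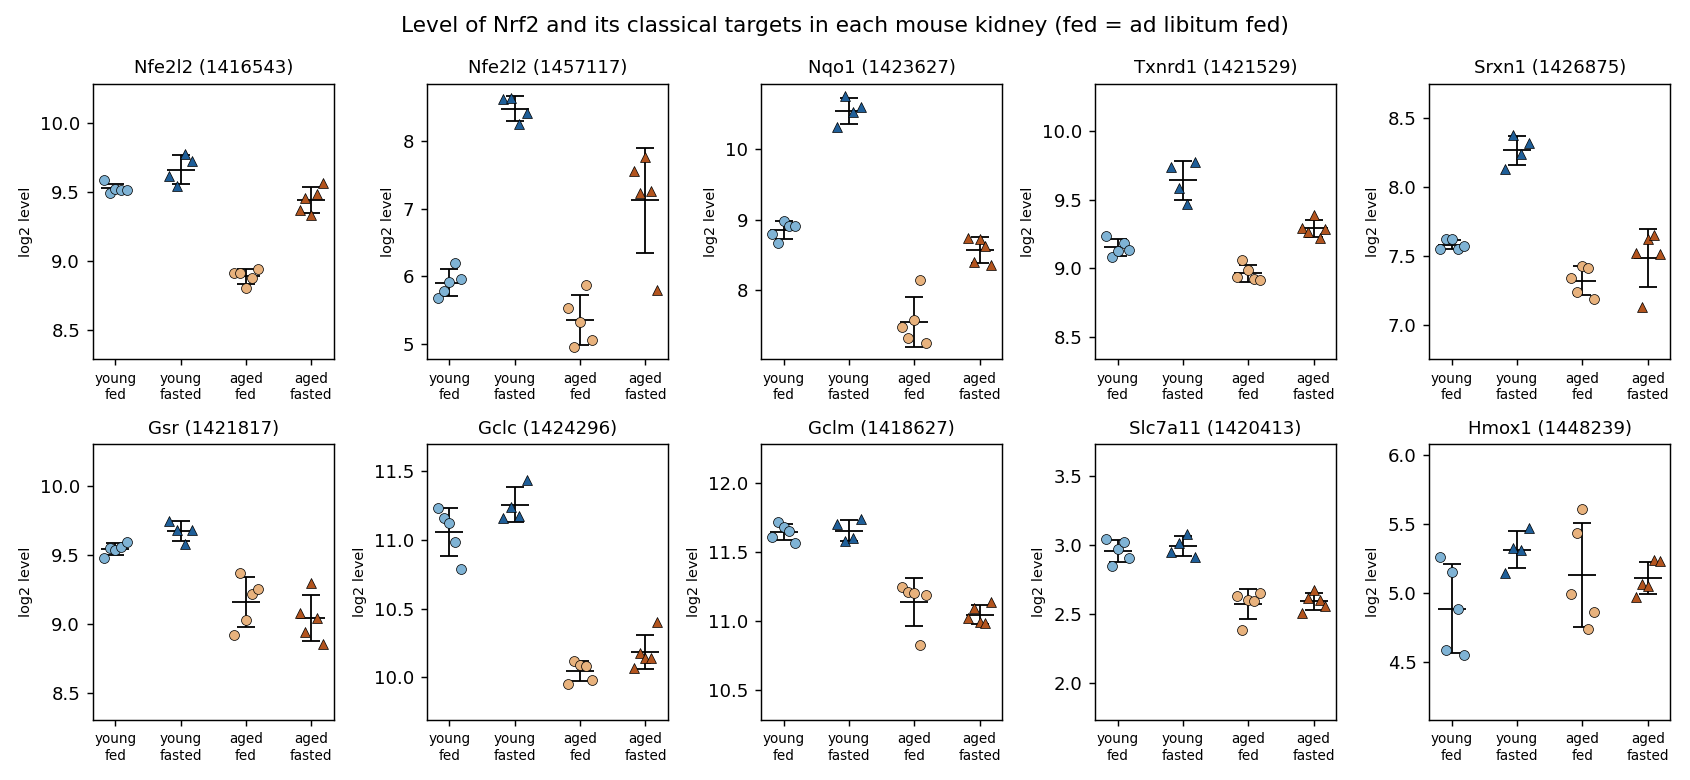
Log2 level (y axis, a range of its own in each panel) of Nfe2l2 by both its probe sets and of each target by its brightest probe set, in the 4 groups (x axis). Each point is 1 mouse, the bar is the group mean and the whiskers are 1 SD. The second Nfe2l2 panel and the Nqo1 panel show the widest steps from fed to fasted mice, and 1 aged fasted mouse stays at 5.79 for that Nfe2l2 probe set.

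Nfe2l2 is read by 2 probe sets, and they did not answer alike. The annotation pairs probe set 1416543_PM_at with a curated RefSeq messenger RNA and probe set 1457117_PM_at with an expressed sequence tag, a single-read cDNA, and which part of the gene either binds was not given in the sources used here. By probe set 1457117, Nfe2l2 was at 5.68, 5.78, 5.91, 6.20 and 5.96 in young fed mice and at 8.61, 8.64, 8.25 and 8.41 in young fasted mice. Every young fasted mouse was above every young fed mouse. The log2 fold change was 2.57 (SE 0.11, 5.95-fold, limma adjusted p = 2e-07). In aged mice the same probe set was at 5.53, 4.96, 5.33, 5.88 and 5.06 in the ad libitum fed group and at 7.55, 7.22, 7.77, 7.26 and 5.79 in the fasted group. The other fasted animals stood clear of the fed ones, and mouse 42, the last of these values, lay within the fed range. The log2 fold change was 1.77 (SE 0.31, 3.40-fold, limma adjusted p = 0.00456), and 2.10 without mouse 42.

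Probe set 1416543, the brighter one, moved much less. It was at 9.59, 9.50, 9.52, 9.52 and 9.52 in young fed mice and at 9.62, 9.54, 9.77 and 9.73 in young fasted mice, with 1 fasted mouse inside the fed range. The log2 fold change of 0.14 (SE 0.06, 1.10-fold) did not pass (limma adjusted p = 0.154). In aged mice it was at 8.92, 8.91, 8.80, 8.88 and 8.95 with food and at 9.37, 9.46, 9.33, 9.48 and 9.56 after fasting. These groups did not overlap, and the rise of 0.55 (SE 0.07, 1.47-fold, limma adjusted p = 0.000324) lay just under the fold minimum of 1.5. The effect of fasting was thus larger in aged kidneys by this probe set, with a difference of 0.41 (aged minus young, SE 0.09, limma adjusted p = 0.0148). By probe set 1457117 the difference had the opposite sign, -0.81 (SE 0.37), and did not pass (adjusted p = 0.347). It was -0.47 without aged fasted mouse 42.

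The unequal answer of the probe sets was tested within each mouse, as the difference of their log2 levels. This test was run for Nfe2l2 alone and was chosen with earlier results of these data known. Fasting moved 1457117 by 2.43 more than 1416543 in young kidneys (SE 0.17, n = 5 and 4, two-sided exact permutation test p = 0.00794, the smallest that 126 arrangements allow, and 0.0159 adjusted over both ages). In aged kidneys it moved it by 1.22 more (SE 0.42, n = 5 and 5, exact permutation p = 0.0317, also 0.0317 after adjustment). The aged value ranged from 1.03 to 1.58 when each aged mouse was left out in turn, with exact p between 0.00794 and 0.0556, and above 0.05 in 6 of the 10 cases (without aged fed mouse 36 or 43, or fasted mouse 33, 38, 39 or 41). In the 4 young fasted mice the probe sets ran in opposite order, the higher the one, the lower the other. Aged fasted mouse 42 had the highest 1416543 and the lowest 1457117 of its group, and mouse 39 the reverse, while mice 38 and 41 ran in the same order in both. This order was noticed after the values were seen and was not tested. With the mean of both probe sets in place of the brighter one, Nfe2l2 rose by 1.16 in aged (limma adjusted p = 0.000555) and by 1.36 in young kidneys (adjusted p = 9.81e-08), and the difference between the ages was -0.20 (adjusted p = 0.685).

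**Figure D2:**
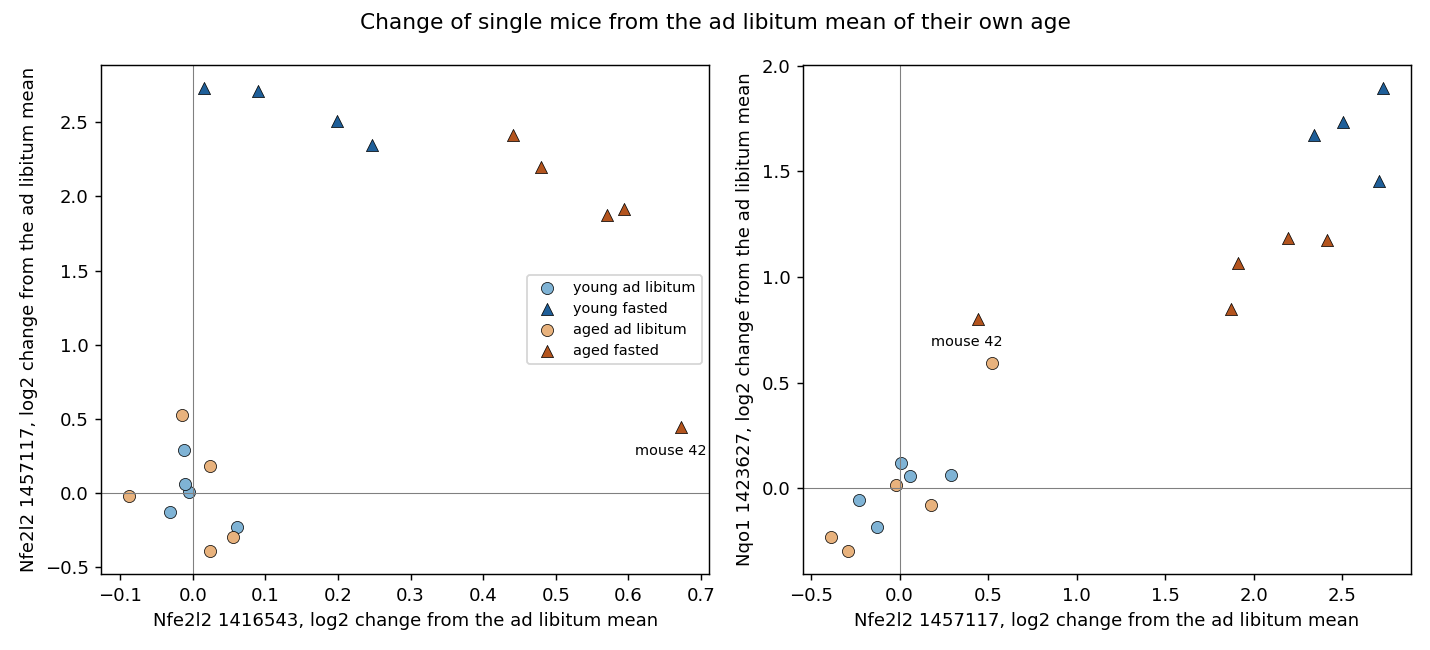
Log2 change of each mouse from the ad libitum mean of its own age, for both Nfe2l2 probe sets against each other (left) and for Nqo1 against Nfe2l2 probe set 1457117 (right). Points are mice, coloured by group. On the left, young fasted mice lie high and near 0 on the x axis, and aged fasted mice lie farther right. On the right, fasted mice of both ages lie up and to the right of the fed mice, apart from mouse 42, beside a fed mouse.

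Nqo1 encodes a quinone reductase that spends NADH or NADPH to turn quinones into hydroquinones, and is the target most often read as a measure of NRF2 activity. It was at 8.80, 8.67, 8.97, 8.91 and 8.91 in young fed mice and at 10.30, 10.75, 10.52 and 10.59 in young fasted mice. In aged mice it was at 7.48, 7.33, 7.57, 8.15 and 7.26 with food and at 8.74, 8.41, 8.73, 8.62 and 8.36 after fasting. The groups were apart in both ages, with fed mouse 40 the nearest to the fasted animals. Nqo1 rose by 1.69 in young (SE 0.09, 3.22-fold, limma adjusted p = 7.41e-07) and by 1.02 in aged kidneys (SE 0.15, 2.02-fold, adjusted p = 0.00163). The difference of -0.67 between the ages (SE 0.19) missed the threshold (adjusted p = 0.0775). It passed in a fit with array weights (0.0480), after quantile normalization of all arrays (0.0447), with separate fits per age (0.0432) and without aged fed mouse 43 (0.0496). The other 18 fits that left out 1 mouse did not pass, with adjusted p up to 0.167, nor did the remaining alternative fits. Without aged fed mouse 40 the difference was -0.53. Set beside its regulator, the Nqo1 estimate was the larger in young kidneys, as was that of Nfe2l2 probe set 1457117, whereas that of 1416543 was the larger in aged kidneys.

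The enzymes that renew thiols split. Txnrd1 encodes cytosolic thioredoxin reductase, which hands electrons of NADPH to thioredoxin. It was at 9.24, 9.08, 9.13, 9.18 and 9.14 in young fed and at 9.74, 9.59, 9.46 and 9.77 in young fasted mice. In the aged groups it was at 8.93, 9.06, 8.99, 8.92 and 8.92 with food and at 9.29, 9.26, 9.39, 9.22 and 9.29 after fasting. Fasted mice were above fed mice without overlap in both ages. The rises were small, 0.49 in young (SE 0.07, 1.40-fold, limma adjusted p = 0.000674) and 0.33 in aged kidneys (SE 0.06, 1.25-fold, adjusted p = 0.00683), and their difference of -0.16 (95% confidence interval -0.35 to 0.03) did not pass.

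Srxn1 encodes sulfiredoxin, which repairs peroxiredoxins that peroxide has overoxidized. By its brightest probe set (1426875_PM_s_at) it was at 7.55, 7.62, 7.62, 7.55 and 7.57 in young fed mice and at 8.13, 8.37, 8.24 and 8.32 in young fasted mice, and these groups were clearly apart. The log2 fold change was 0.68 (SE 0.06, 1.61-fold, limma adjusted p = 2.26e-05). In aged mice it was at 7.34, 7.23, 7.43, 7.41 and 7.19 with food and at 7.52, 7.13, 7.62, 7.65 and 7.51 after fasting, so that mouse 38 was lower than every fed mouse and the other fasted mice were higher. The estimate of 0.17 (SE 0.10, 95% confidence interval -0.05 to 0.38) did not pass (adjusted p = 0.414). The effects differed between the ages by -0.52 (SE 0.12, limma adjusted p = 0.0317), which was -0.43 without mouse 38, and 6 of the 19 fits that left out 1 mouse gave an adjusted p above 0.05 (up to 0.0752; without young fed mouse 346 or 350, young fasted mouse 340 or 344, or aged fed mouse 34 or 37). The other probe sets of Srxn1 rose in young kidneys by 0.38, 0.37 and 0.32 (adjusted p = 0.0207, 0.00989 and 0.00681, the first 0.0605 without mouse 340 and 0.0617 without mouse 344), and their aged estimates of 0.08, 0.12 and -0.05 did not pass. None of their differences between the ages passed in the main fit. That of probe set 1419942 (adjusted p = 0.0578) passed without aged fed mouse 36 (0.0289) and with separate fits per age (0.0456). The other 18 fits that left out 1 mouse did not pass for it, with adjusted p up to 0.106. Probe sets 1425351_PM_at and 1419942_PM_at lay close to the array medians, where little signal stands above background.

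Gsr encodes glutathione reductase, which returns oxidized glutathione to its reduced form. Its brighter probe set lay between 9.48 and 9.59 in young fed, 9.58 and 9.75 in young fasted, 8.92 and 9.37 in aged fed and 8.86 and 9.30 in aged fasted mice, overlapping in both ages. The estimates were 0.13 in young (95% confidence interval 0.01 to 0.25, limma adjusted p = 0.135) and -0.11 in aged kidneys (-0.34 to 0.11, adjusted p = 0.634). Those of the other Gsr probe set were 0.14 and 0.03 and did not pass either.

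Among the listed genes, those of glutamate-cysteine ligase showed little movement in RNA. Gclc and Gclm encode the catalytic and the modifier subunit of glutamate-cysteine ligase, the rate-limiting enzyme of glutathione synthesis, and Slc7a11 encodes the cystine importer xCT that supplies it. Gclc lay between 10.79 and 11.23 in young fed and 11.16 and 11.44 in young fasted mice, and between 9.95 and 10.12 in aged fed and 10.07 and 10.40 in aged fasted mice. The groups overlapped in both ages, and aged fasted mouse 42, the lowest of its group for Nqo1, was the highest for Gclc. Its estimates were 0.20 in young (95% confidence interval -0.01 to 0.41) and 0.14 in aged kidneys (-0.02 to 0.30). Gclm lay between 11.57 and 11.72 in young fed and 11.58 and 11.74 in young fasted mice, and between 10.83 and 11.25 in aged fed and 10.98 and 11.14 in aged fasted mice. Its estimates were 0.01 (-0.12 to 0.14) and -0.09 (-0.27 to 0.10), so both intervals stay under the fold minimum of 1.5 in either direction, 0.585 on the log2 scale, as do those of Gclc.

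Slc7a11 gave hardly any signal. Its brighter probe set lay between 2.85 and 3.08 in young and 2.38 and 2.67 in aged mice, and the other between 2.06 and 2.59 over all mice. These values are among the lowest on the arrays (percentile 13.9 and 0.182 of all probe sets in young mice, by mean level), so that a change at such a low level was not detectable here. The estimates of both probe sets lay between -0.07 and 0.03.

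Hmox1 encodes heme oxygenase-1, which opens heme into biliverdin, iron and carbon monoxide and is abundant in macrophages that clear red cells. It was at 5.26, 4.58, 5.15, 4.88 and 4.55 in young fed and at 5.15, 5.32, 5.31 and 5.47 in young fasted mice. In aged mice it was at 4.99, 5.44, 5.61, 4.74 and 4.86 with food and at 4.97, 5.07, 5.05, 5.24 and 5.23 after fasting. The groups overlapped in both ages. The estimate was 0.43 in young (SE 0.14, 95% confidence interval 0.11 to 0.75, limma adjusted p = 0.059) and -0.02 in aged kidneys (-0.35 to 0.31, adjusted p = 0.968), and their difference of -0.45 did not pass (adjusted p = 0.394). The young value passed in the fit with an intensity trend and robust moderation (adjusted p = 0.0487). It also passed with the dimmest 40 percent of probe sets removed (0.0408) and in the fit of genes at the mean of their probe sets (0.0482). Hmox1 has 1 probe set, so the estimate was the same 0.43 in each of these runs, and only its SE and the adjustment changed. The other models and normalizations did not pass. Its adjusted p ran from 0.0213 to 0.151 when single mice were left out, passing without fed mouse 346 or 348. Macrophage markers moved the other way in these mice: 5 of 12 fell and none rose in young kidneys, the median log2 level of the list lay between 5.60 and 6.05 in fed and 5.11 and 5.31 in fasted mice, and Adgre1 lay between 5.34 and 5.99 in fed and 4.68 and 5.21 in fasted mice. Their part in the Hmox1 values was not tested.

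**Figure D3:**
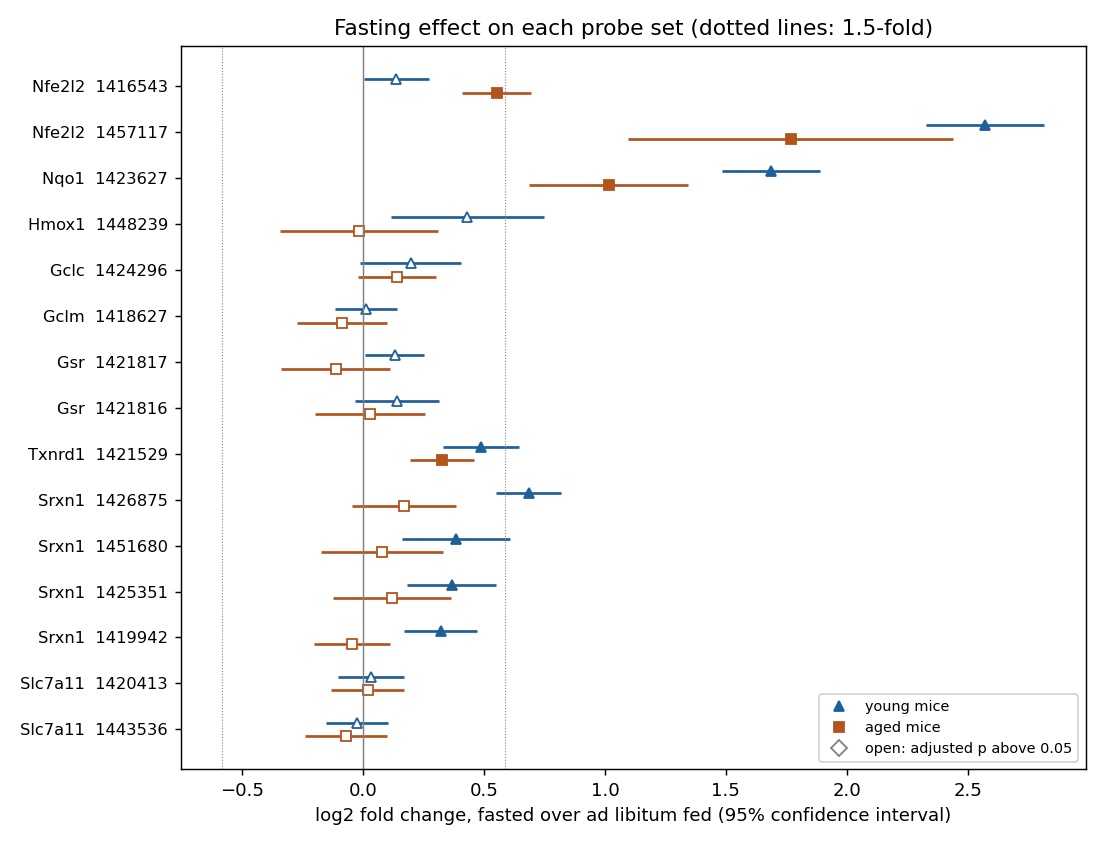
Log2 fold change of fasted over ad libitum fed mice (x axis) for each of the 15 probe sets (y axis), with 95% confidence intervals, in young and aged kidneys. Filled marks have an adjusted p of at most 0.05 and dotted lines mark 1.5-fold. The Nfe2l2 probe set 1457117 and Nqo1 lie farthest to the right in both ages, and the Gsr, Gclc, Gclm, Slc7a11 and Hmox1 marks are open.

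Between the ages, 1 of the 15 probe sets differed with a larger effect in aged kidneys (Nfe2l2 1416543) and 1 with a smaller one (Srxn1 1426875), against 1.95% of all probe sets in either direction. Of the 15 differences, 14 had a negative estimate, with a median of -0.25, beside -0.0061 over all probe sets. Taken at the brightest probe set, 3 of the 9 genes rose in each age, Nqo1 and Txnrd1 in both, Nfe2l2 in aged and Srxn1 in young kidneys. Over all 17097 genes, 10.7% rose and 12.5% fell in young kidneys and 4.32% rose and 4.84% fell in aged kidneys.

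The wider pathway was read from lists of genes at their brightest probe set. In 5 lists of further NRF2 targets, 52 of 59 genes were measured. In young kidneys 27 of the 52 rose and 3 fell, with a median log2 fold change of 0.21, and in aged kidneys 10 rose and 4 fell, with a median of 0.10. The medians over all genes were -0.0073 and -0.0064. The number that rose was between 21 and 25 in young and between 8 and 11 in aged kidneys when single mice were left out, and 23 and 10 without the fasted mice richest in liver transcripts. The effects differed between the ages for 10 of the 52 genes, all with the smaller effect in aged kidneys, where 0.895% of all genes had a negative and 1.55% a positive difference. That count was 6 without young fasted mouse 344.

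Of 18 conjugating and reducing enzymes, 12 rose in young kidneys, and 6 rose and 1 fell in aged kidneys. Cbr3 and Cbr1, both carbonyl reductases, rose by 3.57 (SE 0.12) and 2.57 (SE 0.10) in young and by 0.88 (SE 0.18) and 0.95 (SE 0.08) in aged kidneys, with differences of -2.68 (SE 0.24, limma adjusted p = 3.74e-06) and -1.63 (SE 0.13, adjusted p = 9.53e-07). The retinal dehydrogenase Aldh1a1 rose by 3.31 (SE 0.09) and 1.65 (SE 0.15), with a difference of -1.65 (adjusted p = 9.24e-05). For other members that rose in both ages the difference did not pass. The glutathione transferase Gsta2 rose by 1.56 in young and 1.42 in aged kidneys (difference -0.14, SE 0.19, adjusted p = 0.826), and the membrane-bound Mgst1 by 1.30 and 1.79 (difference 0.49, SE 0.16, adjusted p = 0.138). Glutathione transferase Gstp1 rose by 0.60 in young kidneys, had an aged estimate of 0.01, and differed between the ages (-0.59, SE 0.12, adjusted p = 0.0133). The 1 gene that fell in aged kidneys was Ptgr1, a prostaglandin and leukotriene reductase (-0.49, SE 0.11), named after its value was seen. Members of the glutathione transferase family are alike in sequence, and their probe sets can bind more than 1 of them.

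Export and heme genes followed in part. Of 12 efflux and other targets, 7 rose and 1 fell in young and 3 rose in aged kidneys. The export pump Abcc4 rose by 1.76 (SE 0.10) in young and 0.89 (SE 0.14) in aged kidneys (difference -0.87, SE 0.18, limma adjusted p = 0.0164), and Abcc2 by 0.60 (SE 0.08) and 0.47 (SE 0.10). Abcc3 and Abcc1 rose by 0.82 and 0.57 in young kidneys, where their aged estimates of 0.47 and 0.26 did not pass. Entpd5, a nucleoside diphosphatase of the endoplasmic reticulum, rose by 0.30 in aged and 0.28 in young kidneys. The gene that fell in young kidneys was Ces1g, a carboxylesterase (-1.27, SE 0.36), named after its value was seen. Of 8 heme and iron genes, 3 rose in young and 1 in aged kidneys. Biliverdin reductase B (Blvrb) rose by 1.25 (SE 0.09) and 0.61 (SE 0.14), the heme transporter Slc48a1 by 0.89 (SE 0.10) in young kidneys with an aged estimate of 0.26, and ferrochelatase (Fech) by 0.28 in young kidneys. Red-cell markers were lower in young fasted mice, where 2 of 3 fell, and their part in the heme genes was not tested.

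Genes of NADPH supply went both ways. Pgd, of the oxidative pentose phosphate pathway, rose by 0.55 (SE 0.10) in young kidneys and differed between the ages (-0.68, SE 0.17, limma adjusted p = 0.0372), and transketolase (Tkt) rose by 0.23 in young kidneys. Transaldolase (Taldo1) fell by 0.34 in young and by 0.40 in aged kidneys, and malic enzyme (Me1) fell by 0.37 and by 0.34. Of 9 further glutathione and thioredoxin genes, 3 rose in young kidneys: glutaredoxin (Glrx) by 0.79 (SE 0.08), Slc3a2, the heavy chain that pairs with Slc7a11, by 0.60 (SE 0.16) and Gpx4 by 0.19. In aged kidneys none of them rose, and glutathione synthetase (Gss) fell by 0.26 (SE 0.06).

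**Figure D4:**
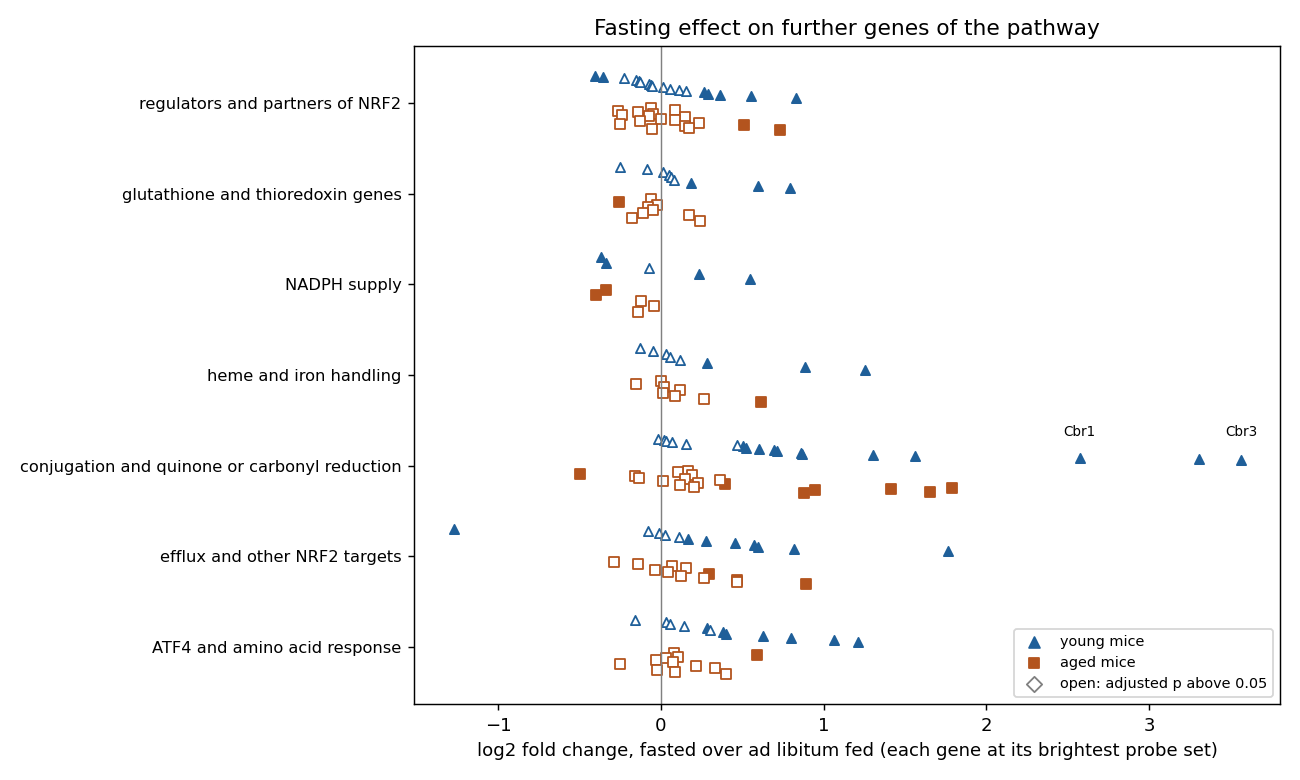
Log2 fold change of fasted over ad libitum fed mice (x axis) for the genes of 7 lists (y axis), each at its brightest probe set, in young and aged kidneys. Filled marks have an adjusted p of at most 0.05. The carbonyl reductases Cbr1 and Cbr3 reach 2.57 and 3.57 in young kidneys and stay under 1 in aged kidneys.

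Among regulators and partners of NRF2, 18 of 20 listed genes were measured. The small MAF protein gene Maff rose in both ages, by 0.83 (SE 0.10, limma adjusted p = 0.000178) in young and 0.73 (SE 0.12, adjusted p = 0.00293) in aged kidneys. Bach1, a repressor that competes with NRF2 for the same elements, rose by 0.27 (SE 0.06) in young and by 0.51 (SE 0.09) in aged kidneys, and its other probe set by 0.20 and 0.58. These were all that rose in aged kidneys, and none fell. In young kidneys the related factors Nfe2l3 and Nfe2l1 and the small MAF gene Mafk also rose, by 0.56, 0.29 and 0.36. Fbxw11, which helps mark NRF2 for breakdown apart from KEAP1, and Syvn1, a ubiquitin ligase of the endoplasmic reticulum, fell by 0.40 and by 0.35. Nfe2l1 and Syvn1 are named after their values were seen. Nfe2l3 (-0.61, SE 0.14, adjusted p = 0.0321) and the retinoid receptor Rxra (-0.41, SE 0.10, adjusted p = 0.0422) differed between the ages at their brightest probe sets. Both calls held together in 5 of the 19 fits that left out 1 mouse (without young fed mouse 347 or 348, aged fed mouse 40 or 43, or aged fasted mouse 42), and the other 14 gave 0 or 1 negative difference among the regulators, as did the mean of a gene's probe sets with 0. The other 2 probe sets of Nfe2l3 did not pass in either age, and those of Rxra had differences of -0.17 and 0.0016 that did not pass. The brightest Nfe2l3 probe set had a mean level of 3.04 over all arrays, under the array medians, where little signal stands above background.

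Slc7a11 and Slc3a2 also answer to ATF4, the factor of the amino acid response, so that list is given beside them. Of its 12 genes, 7 rose in young kidneys, with a median of 0.34, led by asparagine synthetase Asns (1.21, SE 0.13), Chac1 (1.07, SE 0.15), Ddit3 (0.63, SE 0.11) and Trib3 (0.80, SE 0.14). In aged kidneys 1 rose, Atf3 (0.59, SE 0.12), and the median was 0.08. Asns, Chac1, Trib3 and Phgdh differed between the ages, by -0.81, -0.98, -0.82 and -0.63 (limma adjusted p = 0.0374, 0.0164, 0.0164 and 0.00478). Trib3, Atf3 and Chac1 had mean levels of 3.67, 4.04 and 4.43 over all arrays, near the array medians.

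The genes most like each of these in pattern were found from the change of every mouse from the fed mean of its own age, by the root mean square of the difference to the changes of the gene in question over the 19 mice. For Nfe2l2 probe set 1416543, with an own root mean square change of 0.30, the nearest of 17096 genes were Ikzf5 (0.103), Gm15834 (0.105), Klf6 (0.107), Etnk1 (0.108) and Bach1 (0.108). All 5 had larger estimates in aged than in young kidneys, such as 0.54 against 0.17 for Klf6, which follows from choosing them by likeness. For Nqo1, with an own change of 0.96, they were ceruloplasmin Cp (0.207), Abhd15 (0.233), G0s2 (0.235), Abcc4 (0.250) and Pdxk (0.256). For Nfe2l2 probe set 1457117, with an own change of 1.54, they were the fibrinogen gamma chain Fgg (0.373), Aldh1a7 (0.413), Mdrl (0.458), the fibrinogen alpha chain Fga (0.470) and Slc38a3 (0.483). None of the 5 nearest genes was shared between the probe sets of Nfe2l2. The measure takes in the size of a change. Probe sets with own changes of 0.30 and 1.54 could therefore hardly share neighbours, and nothing is read from this. The mice share their groups in this measure, so it describes likeness only.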

How the data were processed

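The authors made the values by RMA background correction and normalization through arrayanalysis.org and deposited log2 levels for 45141 probe sets of 19 arrays; the version is not given in the sources used here. Array medians differ by age and hardly within an age. Statistics were computed in R 4.3.3 with limma 3.58.1, per age for fasted against ad libitum fed mice and from 1 fit of all 4 groups for the difference between the fasting effects, and p-values were adjusted across all probe sets by the Benjamini-Hochberg method. Rose and fell mean an adjusted p of at most 0.05; called adds a fold change of at least 1.5. The number of arrays limits the precision.

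The annotation gives 28898 probe sets 1 symbol, 551 several, and does not list 15692. A gene was taken at its brightest probe set, with the mean of its probe sets as an alternative. Named are all probe sets of the listed genes, up to 4 genes per list with the smallest adjusted p in each comparison, and the 5 genes nearest in pattern (for Nfe2l2 probe set 1457117 added after its values were seen). Members, lists and tests were chosen with earlier results of these data known. The scripts were tested on simulated data. Promoter sequences are from RefSeq, and some genes are not reported here. Alternatives changed the model, weights, normalization, filter, thresholds and arrays.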

Additional observations from a re-analysis of the deposited data

Results flagged for a closer look

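Within a group of 4 or 5 mice, the highest or lowest value stood far from the rest in 7 of 64 groups examined, 6 of them among 60 groups of the 15 probe sets, where chance gives about 1 in 20. Nfe2l2 probe set 1457117 was at 5.79 in aged fasted mouse 42, the lowest of its group, and probe set 1416543 was at 9.59 in young ad libitum fed mouse 346, the highest of a narrow group. Srxn1 probe set 1426875 was at 7.13 in aged fasted mouse 38, and Srxn1 probe set 1419942 at 3.34 and Slc7a11 probe set 1420413 at 2.38 in aged ad libitum fed mouse 36. Gclm was at 10.8 in aged ad libitum fed mouse 40, the lowest of its group. The median log2 level of the liver markers was 10.2 in aged fasted mouse 33.

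By the test of the difference itself, the effect of fasting was unequal between the ages for Nfe2l2 probe set 1416543 (0.41, aged minus young) and Srxn1 probe set 1426875 (-0.52). It also differed for 16 of the 82 measured genes of the 7 further lists at their brightest probe sets, with the smaller value in aged kidneys for each of the 16. These were Cbr3 (-2.68), Aldh1a1 (-1.65), Cbr1 (-1.63), Chac1 (-0.98), Abcc4 (-0.87), Trib3 (-0.82), Asns (-0.81), Slc3a2 (-0.77), Pir (-0.74), Pgd (-0.68), Phgdh (-0.63), Slc48a1 (-0.62), Nfe2l3 (-0.61), Gstp1 (-0.59), Rxra (-0.41) and Ugt1a6a (-0.36). At its brightest probe set Rxra passed in neither age by itself. Nfe2l3, Pir and Trib3 had mean levels of 3.04, 3.66 and 3.67 over all arrays, low beside most of these genes. Over all genes at their brightest probe sets, 0.895% had a negative and 1.55% a positive difference. Slc40a1, of the heme and iron list, differed the other way by its dimmer probe set 1448566 (0.62, limma adjusted p = 0.0359). Its brightest probe set did not pass.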

How the results depend on the processing

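The probe sets of the 9 genes that rose in aged kidneys passed in every alternative run. Among young calls, Srxn1 probe set 1451680 was lost in the ordinary linear model (adjusted p = 0.073). Without a fold minimum 4 probe sets were called in aged and 7 in young kidneys. For the difference between the ages, the number of negative probe sets was 0 in the ordinary model, 3 with separate fits per age, 2 with array weights and 2 after quantile normalization, and at an adjusted p of at most 0.01 both signs gave 0. With the mean of a gene's probe sets, 5 genes rose in young kidneys (Nfe2l2, Nqo1, Hmox1, Txnrd1 and Srxn1). The differences were then 0 positive and 0 negative, 1 regulator fell in aged kidneys and 0 regulators differed with a negative sign. In a separate run, with quantile normalization and brightest probe sets, 1 regulator differed with a negative sign. Without mice 33 and 339 the unequal effect of the Nfe2l2 probe sets in aged kidneys was 1.09 (exact permutation p = 0.0556). Estimates that changed sign passed no test: Gclm in young kidneys was -0.0157 after median centring and -0.00495 without mice 33 and 339, Slc7a11 probe set 1420413 had a difference of 0.0067 after median centring, and Hmox1 in aged kidneys was 0.0162 without mice 33 and 339. No scaling moved the median of all genes by more than 0.03.

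Leaving out each mouse in turn gave from 0 to 2 negative differences among the 15 probe sets. It gave 6 to 12 negative and 0 to 1 positive differences in the 5 target lists, 1 to 2 rises in aged kidneys and 0 to 1 positive differences for the ATF4 list, and, for regulators, 0 to 1 falls in aged kidneys, 1 to 2 falls in young kidneys and 0 to 2 negative differences. The unequal effect of the Nfe2l2 probe sets in aged kidneys ran from 1.03 to 1.58. Estimates that changed sign ran from -0.11 to 0.00971 (Gclc, difference), -0.0163 to 0.0359 (Gclm, young), -0.0386 to 0.0950 (Gsr probe set 1421816, aged), -0.12 to 0.10 (Hmox1, aged), -0.0290 to 0.0403 and -0.0605 to 0.0174 (Slc7a11 probe set 1420413, aged and difference) and -0.0539 to 0.0180 (Slc7a11 probe set 1443536, young). The cause was not tested. No paired analysis was possible because the groups share no replicate numbers.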

Other observations

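Probe sets of one gene also parted elsewhere in the pathway, in genes picked after their values were seen. Cul3, the scaffold of the ligase that KEAP1 serves, has 5 probe sets. Its brightest did not pass (-0.15 in young and -0.14 in aged kidneys), while probe sets 1422795 and 1450756 fell in young kidneys by 0.50 and by 0.43 (limma adjusted p = 0.00039 and 0.0063) and probe set 1434717 fell in aged kidneys by 0.31 (adjusted p = 0.033). Mgst1 rose by 1.30 in young and 1.79 in aged kidneys by its brighter probe set, and the other gave -0.04 and -0.08, neither of which passed. Entpd5 has 6 probe sets, and the 5 that passed in young kidneys gave rises between 0.28 and 1.04, the smallest by the brightest. Esd went both ways in young kidneys: probe set 1438488 fell by 1.08 (limma adjusted p = 2.16e-05) and 1441604 rose by 0.45 (adjusted p = 0.00457). The former also fell in aged kidneys, by 0.57 (adjusted p = 0.00608), and the brightest Esd probe set passed in neither age.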
